A study of Mus musculus with 24 samples.

Results

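Binding of the transcription factor TCF7L2 in the mouse cortex at E15.5 (embryonic day) was described from its ChIP-seq peak list, taking every peak on chromosomes 1 to 19. These were 32579 of the 33042 peaks in the list, and of 311477 peaks on the same chromosomes in the 6 lists analysed from the study, which cover 3 transcriptional regulators at E15.5 and E18.5. The list stands for 2 ChIP libraries and 2 input libraries from cortex of wild-type mice kept on a CD1 background. Reads of the replicates were merged before peaks were called, so each peak carries a single value and no spread between replicates can be given. The labels name the target TCF4, an older name of TCF7L2 that is also the symbol of an unrelated bHLH gene, and the antibody used in the study was raised against TCF7L2. Dissected cortex is a mixture of cell types, and a peak cannot be assigned to any of them. No untreated or mutant group belongs to the list, so the comparisons below are between classes of peaks, places in the genome and gene groups.

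TCF7L2 is an HMG-box DNA-binding protein of the TCF/LEF family and acts at the end of the canonical Wnt pathway. Without a Wnt signal, a complex containing AXIN, APC and GSK3 marks beta-catenin for destruction, and TCF/LEF proteins on DNA are held with Groucho (TLE) corepressors. When a Wnt ligand binds Frizzled and LRP receptors, beta-catenin is stabilised, enters the nucleus and serves as coactivator for the TCF/LEF proteins. Axin2, Lef1, Tcf7, Sp5, Znrf3 and Nkd1 are known as direct targets in many tissues, and several of them dampen the pathway in turn. In the embryonic cortex, Wnt signalling is best known in the hem and in progenitors.

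The strongest peaks of the list included the promoter of Axin2, an upstream region of Lef1 and the promoter of Tnfrsf19, all Wnt target genes. The short sequence CTTTGAT, the core that the HMG box of TCF/LEF proteins recognises, was therefore looked up inside these peaks on both strands. It occurred 3 times in the Axin2 peak, at 176 bp before and at 629 and 1813 bp after the summit (the point of highest read density) on the forward strand of the chromosome. In the order of the chromosome, the Axin2 copies lay in an exon and in introns of the gene. The Lef1 peak held 1 copy, 146 bp before the summit in intergenic sequence, and the Tnfrsf19 peak held 2, both in exon sequence, at 206 and 269 bp before the summit. The core was not particular to peaks at Wnt genes: 13 of the 60 strongest peaks held it, among them those at Cltc, Gnb2, Zfp142, and Sfi1. Over whole peaks, which differ in width, it was in 2081 (6.39%, 6.13 to 6.66) of the list and in 17.2% (14.4 to 20.4) of the 606 peaks of at least 2000 bp, and 4 peaks held 3 copies or more. All sequences below are GRCm38 reference, 5′ to 3′ on the strand given, with the core in capitals and 20 bases to each side.
Axin2 core, chr11:108920407-108920453 (+): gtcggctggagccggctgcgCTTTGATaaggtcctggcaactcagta
Axin2 core, chr11:108921212-108921258 (+): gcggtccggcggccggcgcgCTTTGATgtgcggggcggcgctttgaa
Axin2 core, chr11:108922396-108922442 (-): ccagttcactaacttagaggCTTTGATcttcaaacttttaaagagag
Lef1 core, chr3:131105911-131105957 (+): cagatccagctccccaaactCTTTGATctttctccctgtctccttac
Tnfrsf19 core, chr14:61046241-61046287 (-): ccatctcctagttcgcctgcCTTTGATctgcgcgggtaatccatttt
Tnfrsf19 core, chr14:61046304-61046350 (-): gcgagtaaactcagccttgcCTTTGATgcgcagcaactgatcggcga

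The highest peak of the list, at the promoter of Rnf44, held no copy of the core. Its summit lay in GC-rich sequence (75.2% G or C over 121 bases), shown here with the GC box (GGGCGG on either strand, a word bound by SP and KLF factors) in capitals.
Rnf44 summit, chr13:54694000-54694120 (+): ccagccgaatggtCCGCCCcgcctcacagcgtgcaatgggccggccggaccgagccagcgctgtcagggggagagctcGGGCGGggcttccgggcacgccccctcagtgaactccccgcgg

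Peak strength is given as fold enrichment, the ratio of ChIP reads to background reads at the summit with a pseudocount of 1 on both sides. ChIP reads are scaled to the smaller library, which makes each worth 0.776. The background was 1 constant for the whole genome, 6.43 reads on that scale, so that a local excess of input reads does not lower a value. The list ran from a fold enrichment of 2.64 to 39.7, that is from 24 to 379 ChIP reads over the summit (18.6 to 293.9 after scaling), and the median was 4.31. Only 744 peaks (2.28%) reached 10, 11 reached 20 and 5 reached 30. Intervals on single peaks below are exact 95% Poisson intervals of the read number and cover counting error only. If 1 read per position and strand was kept, which the sources used here do not say, no more than 400 reads and a fold enrichment of 41.9 could be reached, and the intervals of the peaks near that limit would not hold. The upper bound of the highest peak, 43.9, lies above it.

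The 5 peaks above 30 lay at Rnf44, at a pair of noncoding genes on chromosome 17, at Axin2 and downstream of Axin2. Rnf44, which encodes a RING finger protein, had a fold enrichment of 39.7 (35.8 to 43.9) at chr13:54692949-54694930, with the summit at -153 bp from a transcription start site (TSS; negative distances are upstream). Axin2, the feedback scaffold of the destruction complex, reached 32.2 (28.7 to 36.0) over a peak of 2729 bp at chr11:108919915-108922643. The intervals of direct neighbours among the 25 strongest peaks overlapped. The fifth peak, of 30.7 (27.3 to 34.4) at chr11:109011544-109012167, was intergenic. Its nearest TSS was that of the processed pseudogene Gm11668, 4205 bp away, and the nearest protein-coding TSS was an internal one of Axin2 at 68235 bp, the annotated start of that gene being 91507 bp upstream of the summit.

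**Figure D1:**
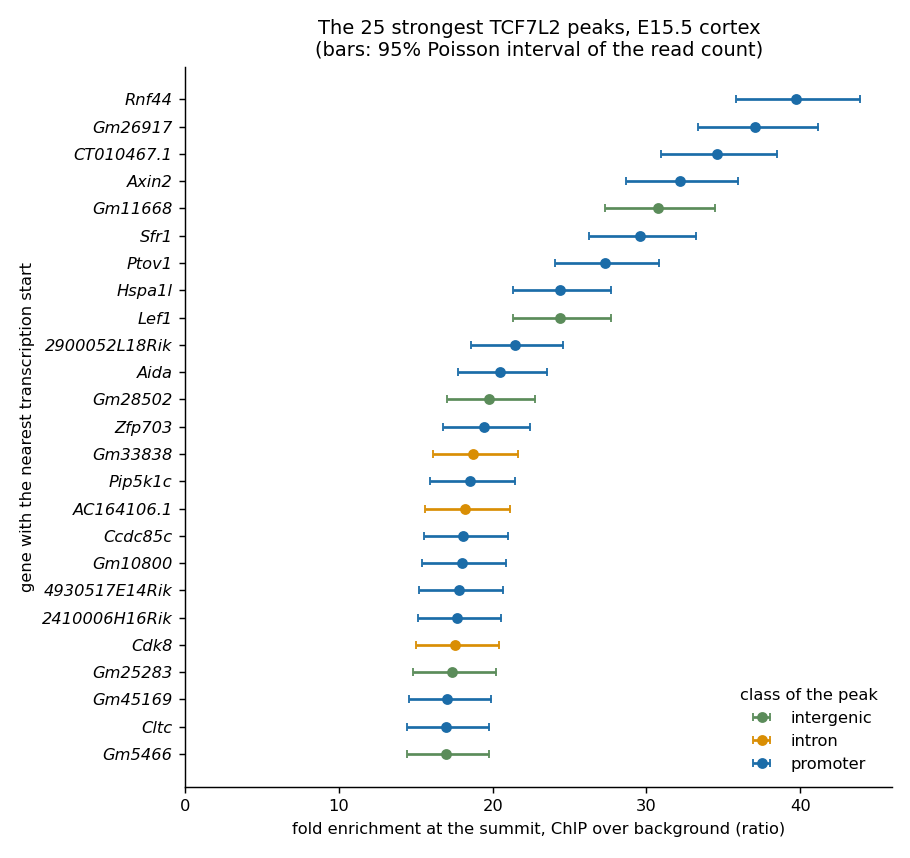
Fold enrichment (x axis, ratio of ChIP to background reads) of the 25 strongest peaks, named by the gene with the nearest TSS and coloured by class, with 95% Poisson intervals of the read number as bars. Values fall from 39.7 at Rnf44 to 16.9 at Gm5466, and the intervals of neighbouring peaks overlap.

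The remaining peaks among the first 25 were at genes of mixed function. At promoters these were Sfr1 (29.6, 26.2 to 33.2), a factor of recombination repair, Ptov1 (27.3, 24.1 to 30.8), the heat shock protein gene Hspa1l (24.4, 21.3 to 27.7), 2900052L18Rik (21.4), which lies beside Bahcc1, and Aida (20.5), which encodes an axin interactor. Zfp703, a zinc finger corepressor, had 19.4, the lipid kinase gene Pip5k1c 18.51, Ccdc85c 18.1, 4930517E14Rik beside Prdm10 17.8, 2410006H16Rik 17.7, Gm45169 beside Rhcg 17.05, and Cltc, the clathrin heavy chain, 16.9. Outside promoters, the region 4391 bp upstream of Lef1 (chr3:131105505-131107291) stood at 24.4 (21.3 to 27.7), above the promoter peak of Lef1 itself at 7.02 (5.46 to 8.90), and the intervals of these peaks did not overlap. Tnfrsf19, a TNF receptor family gene, and Ptch1, the Hedgehog receptor gene, both had promoter peaks of 16.7 just below this group.

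Several of the strongest peaks lay in repeated sequence or at noncoding genes. The second and the third peak, of 37.1 at chr17:39842865-39847268 and 34.6 at chr17:39847350-39848967, lay next to each other at the lincRNA Gm26917 and at CT010467.1, which is annotated as rRNA. Gm10800 on chromosome 2 (17.98) and Gm33838 on chromosome 9 (18.7) were at 73.3% and 68.2% repeat-masked bases, and Gm5466 (16.9) at 48.4%. A pair of peaks near Gm28502 on chromosome 15 (19.8 and 16.7) held 33.5% and 100% repeat-masked bases. In the whole list, however, 29 peaks (0.089%) were masked over at least 80% of their bases, and the median share was 6.81%. Of the 25 strongest peaks, 23 overlapped a peak in each of the 5 other lists of the study, against 17921 (55.0%) of all peaks. The other two, Hspa1l and the Lef1 upstream region, overlapped a peak in 4 of them. These lists are of ARID1B and FOXP1 at both ages and of TCF7L2 at E18.5. The overlap is a description of these places, and what the reads there come from was not tested.

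Promoters held the largest class of peaks. A peak was taken as a promoter peak when it overlapped the 2000 bp upstream of any TSS (GENCODE vM21), and others were classed by the position of the summit. Promoter peaks numbered 15999 (49.1%, 95% Wilson interval 48.6 to 49.7), summits in introns 8552 (26.2%, 25.8 to 26.7), in intergenic sequence 6138 (18.8%, 18.4 to 19.3), and in exons 1890 (5.80%, 5.55 to 6.06). The same classes made up 6.41%, 40.2%, 49.1%, and 4.29% of autosomal bases. The density was accordingly 104.2 peaks per Mb in promoters, 18.4 in exons, 8.87 in introns, and 5.22 in intergenic sequence. Of the 16580 distal peaks, those outside promoters, 51.6% (50.8 to 52.3) had the summit in an intron and 37.0% (36.3 to 37.8) in intergenic sequence, beside 43.0% and 52.4% of bases outside promoters.

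Promoter peaks were also higher and wider. Their median fold enrichment was 5.56 (quartiles 4.10 and 7.23), against 3.79 (3.37 and 4.52) for distal peaks, a ratio of 1.47. Median widths were 772 and 374 bp, and of the 6140 peaks of at least 1000 bp, 5173 (84.3%) were at promoters. Any overlap with the promoter window sufficed while other classes went by the summit, so a wide peak entered the promoter class more easily. The difference in width is therefore partly set by the definition. Introns and intergenic sequence gave nearly equal medians of 3.68 and 3.79. Among the 1000 strongest peaks, 869 (86.9%, 84.7 to 88.9) were at promoters, and among the 10000 weakest, 2562 (25.6%, 24.8 to 26.5). The 100 strongest had a lower promoter share, 78.0% (68.9 to 85.0), than the 1000 strongest, with intervals that overlapped at their ends, and 13 of them were intergenic.

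**Figure D2:**
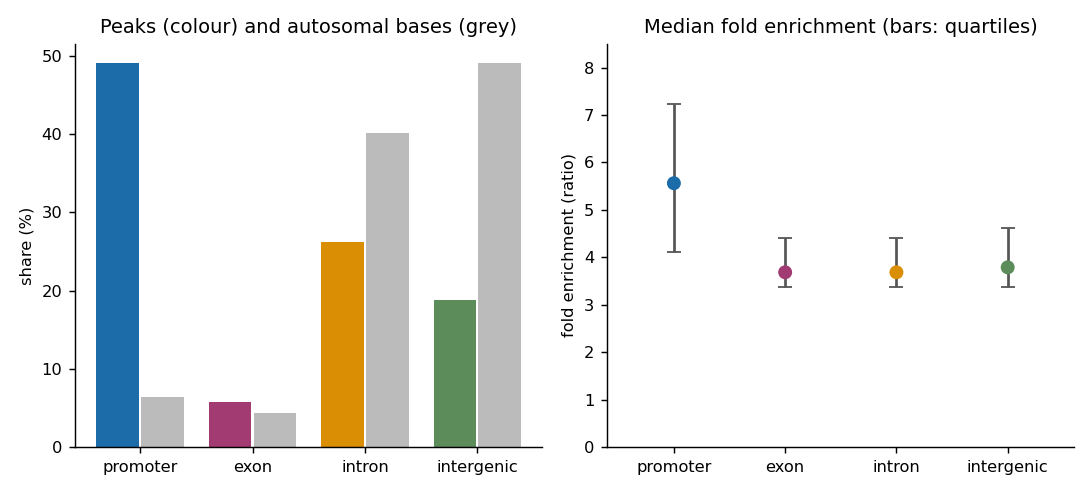
Left, share (%) of the 32579 peaks (colour) and of autosomal bases (grey) in each class. Right, median fold enrichment by class with quartiles as bars. Promoters hold 49.1% of peaks on 6.41% of bases and have the highest median, 5.56, while the other classes lie between 3.68 and 3.79.

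Summits at promoters clustered on the TSS itself. The median summit of promoter peaks lay at -12 bp from the nearest TSS (quartiles -141 and 64 bp), and 85.5% lay within 500 bp of it. Over all peaks, 8110 summits (24.9%) were within 100 bp of a TSS, with a median fold enrichment of 6.19. From there to 500 bp there were 6482 with a median of 4.94, and in each of the bins farther out the median was 3.79. Only 552 peaks (1.69%) were more than 100 kb from any TSS. Since the promoter window ends at the TSS, 1899 distal peaks (11.5%) had their summit in the 1000 bp downstream of a TSS. Exon summits often belonged there, 706 of 1890, and 873 (46.2%) of the exon summits were in coding sequence.

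**Figure D3:**
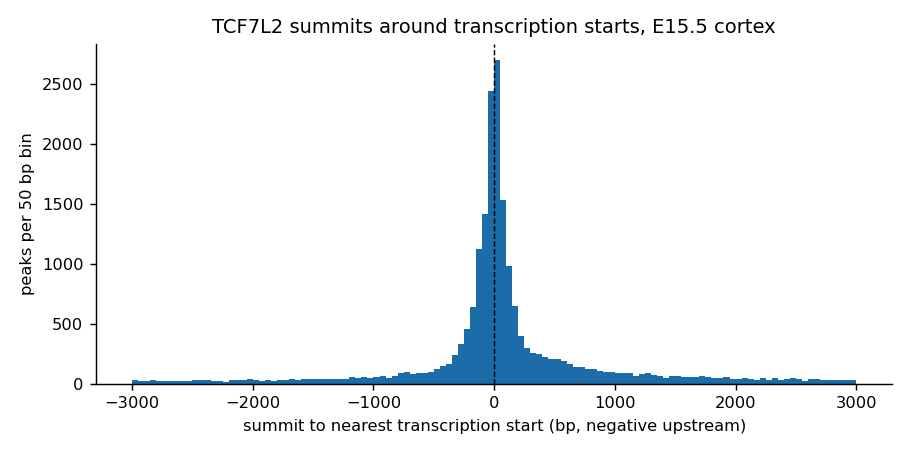
Number of summits per 50 bp bin (y axis) by distance to the nearest TSS (x axis, bp, negative upstream). The tallest bin, with 2700 peaks, begins at the TSS, the bin just upstream holds 2439, and beyond 300 bp more summits lie downstream than upstream.

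The 10 highest intronic peaks are named here by the nearest TSS. After Gm33838 came a peak of 18.2 in an intron on chromosome 18, nearest AC164106.1, and Cdk8, the kinase of the Mediator complex, with 17.6 (15.02 to 20.4) at 3381 bp downstream of its TSS. The lincRNA 2610035D17Rik followed with 15.3 (12.9 to 17.9), then a region at -40608 bp from the TSS of Chd7 with 14.6, Foxo6 with 14.4, Nfix with 13.6, Cadps with 13.5, Gm35172 with 13.1, and Gm49482 with 12.5. Chd7 encodes a chromatin remodeler, and Foxo6 and Nfix encode transcription factors of the forebrain. Foxo6 had further intergenic peaks of 12.3 at 38269 and 44418 bp downstream of its TSS.

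After the intergenic peaks near Axin2 and Lef1 and the higher of the pair at Gm28502, the next was a region of 17.4 and 4994 bp on chromosome 6, at chr6:47646680-47651673, between noncoding genes with Ezh2, a Polycomb methyltransferase gene, as the nearest coding gene at -55938 bp. Next came Gm5466 (16.9), the other peak at Gm28502 (16.7), Gm18604 (15.8) and Gm25352 (15.6), then a region on chromosome 18 near AC125218.3 (14.96) and a region near Gm33056 (14.02), whose nearest coding gene is Olig3 at -79174 bp. Lower in the class, a peak of 13.6 (11.4 to 16.1) lay at -43561 bp from Wnt7b, its nearest coding gene and a Wnt ligand gene of the embryonic cortex, and another of 12.2 lay at -40110 bp from Emx2, a regulator of cortical patterning.

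The widest peak of all covered 6708 bp at Mir124a-1hg, the host of the neuronal microRNA miR-124, with a fold enrichment of 7.02. A pair of peaks at Sfi1 covered 6526 and 6325 bp, and Gm25283 marked the region of 4994 bp near Ezh2. Brd2, a BET bromodomain gene, had 4987 bp, the splicing factor gene Cwc22 4659 bp, Gse1 4526 bp, Gm26698 near Irf2bpl 4428 bp, Gm26917 4404 bp, and Anp32a 4363 bp. Gm10655 beside Tle3, and Myc, followed with 4362 and 4336 bp.

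At the level of genes, 12303 of 20807 autosomal protein-coding genes (59.1%, 58.5 to 59.8) had a promoter peak, and their highest promoter peaks had a median fold enrichment of 6.50 (quartiles 5.15 and 7.86). This share is the background for the gene lists below, which are described by counts and carry no test. Bidirectional promoter lncRNAs had a peak in 164 of 190 cases (86.3%), antisense genes in 810 of 2913 (27.8%), lincRNAs in 762 of 5209 (14.6%), and processed pseudogenes in 126 of 8924 (1.41%).

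Members of the Wnt pathway differed by role. All 18 genes of Wnt signal transduction had a promoter peak, as did all 18 receptors and all 19 TCF/LEF factors and cofactors that matched the annotation. Among feedback and target genes it was 17 of 19, among secreted inhibitors and agonists 9 of 16, and among ligands 6 of 19 (31.6%, 15.4 to 54.0), which lies below the background of 59.1%. Median fold enrichment of the promoter peaks was 8.17 for signal transduction, 7.34 for TCF/LEF factors and cofactors and for feedback genes, 5.302 for receptors, 4.62 for ligands and 3.79 for secreted inhibitors and agonists, beside 6.50 over all genes.

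Ligand promoters were mostly without a peak and those with one were weak. The highest were Wnt7a (5.88), Wnt7b (5.04) and Wnt5a (4.83), and Wnt11, Wnt9b and Wnt6 were at 4.41, 3.58 and 3.48. No promoter peak was called at Wnt1, Wnt2, Wnt2b, Wnt3, Wnt3a, Wnt4, Wnt5b, Wnt8a, Wnt8b, Wnt9a, Wnt10a, Wnt10b, and Wnt16. Of the 47 distal peaks that had a ligand as the nearest coding gene, 14 belonged to Wnt7b, the highest being that of 13.6. Wnt5b had no promoter peak but 9 distal peaks within the gene.

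Among receptors, the Frizzled genes Fzd1 (9.01), Fzd7 (8.69) and Fzd2 (8.38) were highest, and Lgr6 (3.06) was lowest. The coreceptor genes Lrp6 and Lrp5 were at 6.61 and 4.00. Of the secreted regulators, Sfrp1 (6.71), Kremen1 (5.88) and Sfrp2 (4.94) led, and Dkk1, Dkk2, Dkk4, Rspo1, Rspo2, Rspo4, and Sfrp5 had no promoter peak. In signal transduction, Ctnnb1, which encodes beta-catenin, was highest at 13.8 (11.6 to 16.4), with Frat2 at 10.8 and Csnk1a1 at 10.1, and the lowest was Tnks at 5.67.

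Of the 19 TCF/LEF factors and cofactors, 6 lay above the upper quartile of all genes with a promoter peak, 1 below the lower quartile and 5 below the median. Pygo2 was highest at 14.6 (12.3 to 17.3), followed by Bcl9 at 10.8, which links Pygopus proteins to beta-catenin, and Tle3 at 10.6, a Groucho corepressor, while Pygo1 was at 5.25 and Tle2, another Groucho gene, at 4.52. Within the family of the protein itself, the promoter of Tcf7 was at 8.49 (6.76 to 10.5), Lef1 at 7.02, Tcf7l2 at 6.50 (5.01 to 8.31) and Tcf7l1 at 6.19 (4.73 to 7.96), with intervals that overlapped throughout. Tcf7l2 had 5 distal peaks inside the gene, up to 8.69, and Tcf7l1 had 7, up to 4.10. Tcf4, the bHLH gene with which the label could be confused, had a promoter peak of 9.95 (8.06 to 12.1) and 21 distal peaks in the gene, none above 6.19.

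Feedback and target genes held the widest range. Below Axin2 at 32.2, Tnfrsf19 was at 16.7 (14.3 to 19.5) and Znrf3, a ligase that removes Frizzled receptors from the membrane, at 14.02 (11.8 to 16.6). The ephrin receptor genes Ephb2 and Ephb3 were at 10.8 and 10.5, and Sp5 was at 10.5. Nkd1, Myc and Ccnd1 were between 7.23 and 7.34, Notum was at 5.04, Lgr5 at 4.00 and Rnf43 at 3.37. Of the 17, 7 lay above the upper quartile of all genes with a promoter peak, 6 within the quartiles and 4 below the lower one. Cd44 and Dkk1 had no promoter peak. Tcf7, Lef1, Lgr5, and Dkk1 count in this list and in another of the Wnt lists. Around the start of Axin2, peaks within 100 kb were at 3.27 in intergenic sequence 29217 bp upstream, at 32.2 at the promoter, and between 3.06 and 4.62 at 4 intronic positions, before the peak of 30.7 at 91507 bp. Lef1 had in the same distance its upstream peak of 24.4 and the promoter peak of 7.02. A further peak of 6.61, at 26793 bp, had its summit in an annotated exon and was nearest the TSS of Gm42449.

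**Figure D4:**
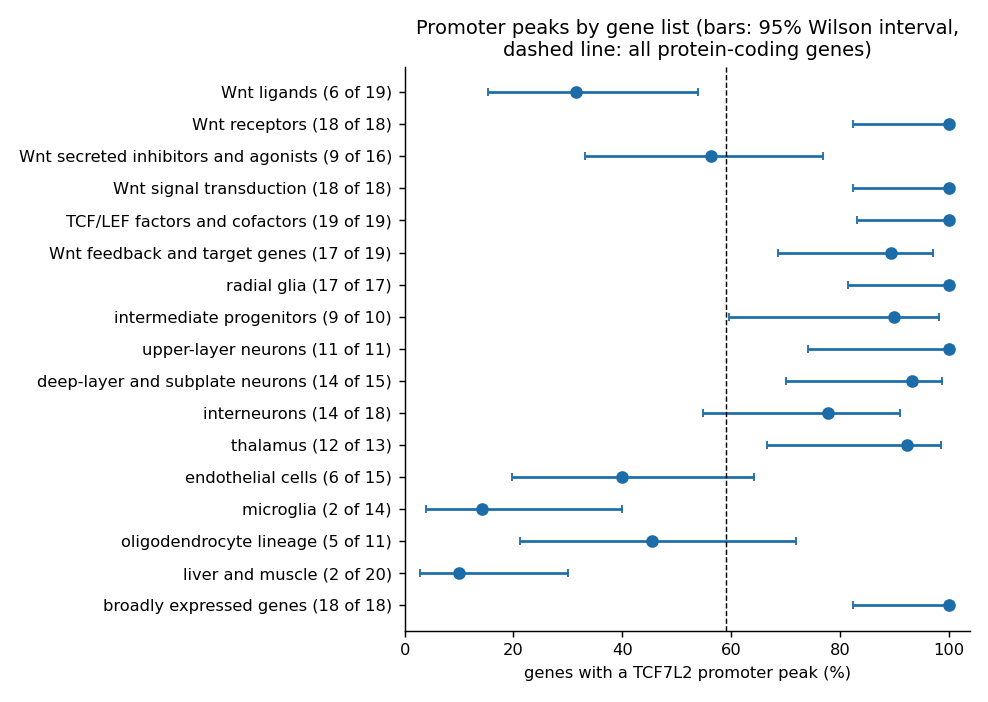
Share (%) of genes with a promoter peak in each list, with 95% Wilson intervals as bars with the genes counted in brackets. The dashed line marks all protein-coding genes (59.1%). Lists of Wnt receptors, signal transduction, TCF/LEF factors and cofactors, radial glia, upper-layer neurons and broadly expressed genes reach 100%. Wnt ligands (31.6%), microglia (14.3%) and liver and muscle (10.0%) lie to the left of the line.

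Nearly all genes of the cortical lineages had a promoter peak. All 17 radial glia genes had a peak, with Notch2 (10.6), Hes5 (9.84) and Hes1 (9.32), receptor and effectors of Notch signalling, the highest. Intermediate progenitor genes had a peak in 9 of 10 cases, led by Insm1 (9.53), Btg2 (9.32) and Gadd45g (9.22), and Tac2 had none. All 11 upper-layer genes had a peak, led by Pou3f2 (10.8), Pou3f3 (8.17) and Lhx2 (8.17), and so did 14 of 15 deep-layer and subplate genes, led by Tle4 (9.74), Foxp2 (9.11) and Nfib (9.01), with Cplx3 the exception. Their median fold enrichment was 6.82 for radial glia, 6.61 for intermediate progenitors and 6.82 for upper layers, near the 6.50 of all genes. For deep layers it was 5.56, with 9 of the 14 genes below the median of all genes. Distal peaks were counted as well. The median number of distal peaks that had a gene as nearest coding gene was 7 for upper-layer, 6 for radial glia, 5 for deep-layer and for thalamic, 4 for interneuron and 3 for intermediate progenitor genes, 1 for endothelial and oligodendrocyte genes, and 0 for microglial genes and over all coding genes. Nfib (37), Mef2c (25) and Cux2 (21) had the most in the cortical lists. These counts were not adjusted for gene length or for the distance to neighbouring genes, and the part of either was not tested. Nfib spans 416 kb and Cux2 194 kb, beside a median of 17.6 kb over all coding genes.

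Interneuron genes had a promoter peak in 14 of 18 cases, with Sp9 at 11.4 and Sp8 at 9.74 but a median of 4.83 and 10 of the 14 below the median of all genes, while Lhx6, Nkx2-1, Slc32a1, and Sst had none. Thalamic genes, a list included because Tcf7l2 is known for its high expression in the thalamus, had one in 12 of 13 cases, led by Foxp2 (9.11), Cacna1g (5.77) and Zic4 (5.35), with a median of 4.94, and Kcnc2 had none. Of these 12, 11 were below the median of all genes, and Foxp2 also counts in the deep-layer list.

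Markers of other cell types had shares between 10.0% and 45.5%, below the background, although the intervals for endothelial (19.8 to 64.3) and oligodendrocyte genes (21.3 to 71.99) included it. Oligodendrocyte lineage genes had a promoter peak in 5 of 11 cases (Pdgfra 5.88, Nkx2-2 5.04 and Cnp 4.94 the highest), and Cspg4, Gpr17, Mag, Mobp, Mog, and Sox10 had none. Endothelial genes had one in 6 of 15, led by the glucose transporter gene Slc2a1 (7.55), Mfsd2a (5.46) and Flt1 (3.89), and none was called at Abcb1a, Cdh5, Cldn5, Emcn, Erg, Pecam1, Slco1c1, Tek, and Tie1. Microglial genes had one in 2 of 14, among them Tmem119 (4.83), and none at Aif1, C1qa, C1qb, C1qc, Csf1r, Cx3cr1, Fcrls, P2ry12, Ptprc, Spi1, Trem2, and Tyrobp. For liver and muscle genes the count was 2 of 20, Actn3 (6.40) and Ckm (3.37), with none at Alb, Afp, Ttr, Apob, and the other 14. A rare cell type gives few reads in whole cortex, so an absent peak does not show an unbound promoter in that cell type.

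Broadly expressed genes and large housekeeping families came with peaks at nearly every promoter. All 18 broadly expressed genes had a promoter peak with a median of 8.75, with Polr2a at 15.3 and Eef1a1 at 13.0. All 73 cytosolic ribosomal protein genes had one (median 7.96, Rps12 highest at 11.6), as did all 35 complex I subunit genes (6.61) and 45 of 47 proteasome genes (6.61). Genes of the Srsf splicing family had one in 10 of 11 cases with a median of 9.74 and Srsf7 highest at 15.9. Zinc finger genes named Zfp had one in 288 of 385 cases (74.8%), solute carrier genes in 215 of 358 (60.1%), Sox genes in 13 of 18, forkhead genes in 27 of 41, and Hox genes in 22 of 39 with a median of only 3.79. Olfactory receptor genes had 1 in 1128, vomeronasal receptor genes 1 in 329, keratin genes 1 in 53, and beta-defensin genes 0 of 42, which allows a share of up to 8.38% (upper Wilson bound).

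Inside genes, distal summits gathered in a limited number of loci. Of the coding genes, 4049 (19.5%) contained at least 1 distal summit, with a median of 1, and 105 contained at least 10. The most were in Gm20388 (177), a gene model of 4435 kb that spans its neighbours and includes the 88 peaks of Gse1. Then came Fgfr2 (51, in an annotated span of 2961 kb), Cwc22 (42), Dnah8 (41), Auts2 and Nfix (39 each), Btbd9 (36), Nfib (35), and Tenm4 (32). Per 100 kb, Cwc22 was densest with 64.4, followed by Nfix with 38.8, Gse1 with 24.9 and Dnah8 with 16.2, against 0.945 over all coding genes. Nfix and Nfib encode nuclear factor I proteins, which act in radial glia and neurons, and Auts2 is a neurodevelopmental gene. In Cwc22, 40 of the 42 summits belonged to peaks that overlapped all 5 other lists, whereas this held for 9 of 39 in Nfix, 16 of 88 in Gse1 and 34.0% of all distal peaks. These peaks were weak, with median fold enrichments between 3.58 and 4.21 in the genes named.

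The TCF/LEF core was found at few summits, and its ratio to the flanks depended on the width of the window. In 200 bp windows centred on distal summits, 528 of 16580 (3.18%, 2.93 to 3.46) held CTTTGAT on either strand, against 3.07% (2.89 to 3.26) of windows centred 1000 bp to each side, a ratio of 1.04. The interval of the ratio, from the counting error of the summit share alone, was 0.95 to 1.13. In 100 bp windows the ratio was 1.22 (1.09 to 1.37). Over all 200 bp windows of the autosomes the share was 4.05%. At promoter summits it was 1.48% (1.31 to 1.68), against 2.76% in the flanks and 2.51% of the windows before all annotated TSSs. The variant CTTTGAA gave 4.28% at distal summits and 4.42% in the flanks. Base composition moved with these shares: the median GC content was 65.5% at promoter summits and 53.5% at distal summits, against 47.8% and 47.5% in their flanks, and the core is a word rich in A and T. Its part in the shares was not tested.

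The share with the core was also taken by peak strength, for distal and promoter peaks apart. The core was found at 29 of the 500 strongest distal peaks (5.80%, 4.07 to 8.21), against 3.0% in their flanks, and at 6 of the 100 strongest (6.0%, 2.78 to 12.5), an interval that includes the 3.5% of their flanks. Among promoter peaks it was found at 8 of the 100 strongest promoter peaks (8.0%, 4.11 to 14.998), against 2.5%. Among the 500 strongest promoter peaks it was 2.4%, against 2.9%. With distal peaks ranked by fold enrichment and cut into 4 sets of equal size, the shares were 3.57%, 3.55%, 2.87%, and 2.75% from highest to lowest, against 3.45%, 2.69%, 2.94%, and 3.20% in the flanks. The same sets of promoter peaks had 1.13%, 1.20%, 1.35%, and 2.25%, so that the lowest set held the largest share, against 2.98%, 2.59%, 2.85%, and 2.63% in the flanks. In bins of 50 bp, the density at distal peaks was highest in the bin just before the summit, 0.209 per kb. The bin after it, at 0.170, was lower than several bins far from the summit, which reached 0.180.

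**Figure D5:**
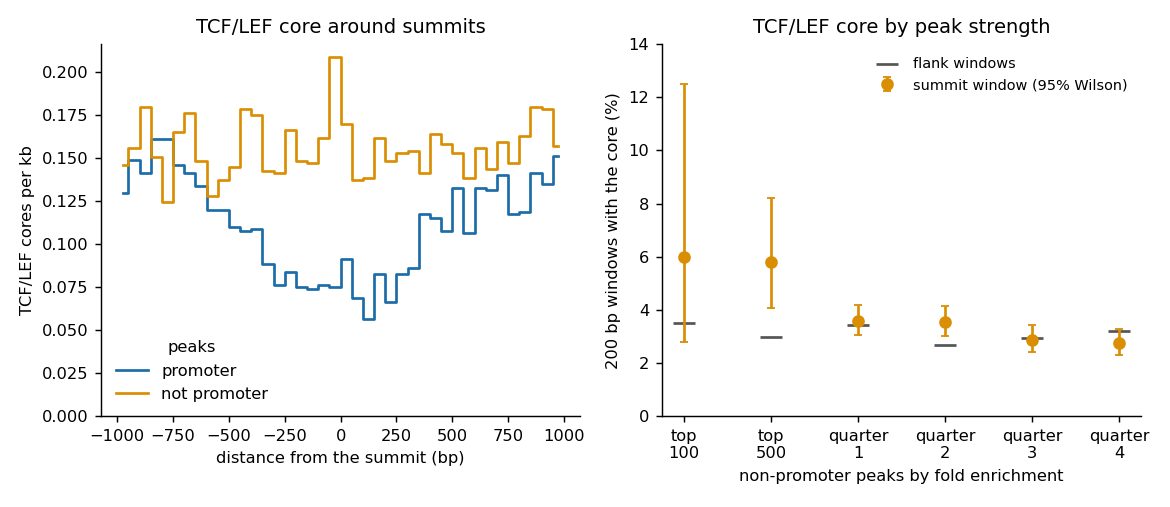
Left, copies of the TCF/LEF core per kb (y axis) in 50 bp bins by distance from the summit (x axis, bp) for promoter and distal peaks. Right, share (%) of 200 bp windows with the core by strength of distal peaks, with 95% Wilson intervals, beside the flanks. The distal curve reaches 0.209 per kb next to the summit, the promoter curve is lowest within 200 bp of it, and the 500 strongest distal peaks reach 5.80%.

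The 5 strongest distal peaks with the core within 100 bp of the summit are shown as examples of the sequence around it. They had fold enrichments of 15.3 in an intron of the lincRNA 2610035D17Rik, 11.9 in intergenic sequence nearest Gm26759, 11.3 nearest Gm38123, 10.6 at -3612 bp from the TSS of Tle2, a Groucho corepressor gene, and 10.5 nearest 1700001O22Rik. The core lay 0 to 96 bp from the summit, and in the peak near Gm38123 it was centred on the summit base.
2610035D17Rik core, chr11:113192204-113192250 (-): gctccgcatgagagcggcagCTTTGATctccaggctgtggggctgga
Gm26759 core, chr8:126538843-126538889 (-): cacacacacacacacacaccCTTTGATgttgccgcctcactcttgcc
Gm38123 core, chr12:112333487-112333533 (-): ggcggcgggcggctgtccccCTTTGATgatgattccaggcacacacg
Tle2 core, chr10:81571022-81571068 (+): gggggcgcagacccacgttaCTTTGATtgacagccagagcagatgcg
1700001O22Rik core, chr2:30784760-30784806 (-): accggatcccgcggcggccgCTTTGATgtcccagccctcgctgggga

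Several of the 20 words searched had larger ratios between summits and flanks. At distal summits the E-boxes CAGCTG and CATCTG, which neural bHLH factors recognise, were in 20.3% (19.7 to 20.9) and 25.9% (25.3 to 26.6) of windows, against 10.2% and 15.504% in the flanks. Over all genome windows they were in 7.37% and 15.04%. The nuclear factor I word TTGGCA was in 19.2% (18.6 to 19.8) against 10.1%. The CTCF word CCAGGGGGC was in 0.881% against 0.293%, and the RFX word GTTGCCATG in 0.694% against 0.253%. Words of AP-1 (TGACTCA, 2.79% against 3.22%) and T-box factors (AGGTGTGA, 0.869% against 0.884%) did not exceed their flanks. At promoter summits, the GC box GGGCGG was in 49.4% of windows against 9.68%, the helper word GCCGCC of some TCF proteins in 40.5% against 7.08%, the ETS word CCGGAAG in 9.22% against 1.53%, the NRF1 word GCGCATGCG in 1.92% against 0.072%, the YY1 word AAGATGGCG in 1.92% against 0.150%, and the CRE word TGACGTCA in 1.63% against 0.191%. Of the windows before all TSSs, 27.1% held the GC box, 16.2% the helper word, 6.49% the ETS word, 1.18% the NRF1 word, 0.629% the YY1 word, and 1.36% the CRE word. At distal summits the helper word was in 12.6% (12.1 to 13.1) against 4.33%. A word match is a description of the sequence and does not show which protein was bound.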

How the data were processed

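ChIP and input chromatin of E15.5 cortex were sequenced as single 50-bp reads. Per the study's methods, alignment to GRCm38 (mm10) was by BWA (0.7.15); the authors then filtered by mapping quality, merged replicates, and called narrow peaks with MACS2 (2.2.7 in the submitters' processing notes) against input without local background. What was done with duplicate reads was not given in the sources used here. Each peak in the deposited list has a fold enrichment (a ratio), −log10 p, −log10 q, and a score that the authors' caller derives from q. The score was not used.

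Fold enrichment and p were solved together for the constant background of MACS2, which gave 77.5 M ChIP reads and 60.1 M in the smaller library; 100% of pairs of values were met within 0.01 on the −log10 scale. Intervals cover counting error only. Annotation was GENCODE vM21, whereas the study used another release, and sequence was the RefSeq copy of GRCm38.p6. Python 3.11.15 with numpy 2.4.6, pandas 2.3.3, and scipy 1.17.1 was used, and steps were tested on simulated data. Named genes followed a rule (strongest, widest and densest loci, the 3 highest and the peakless members of each list), and others are named for context after their values were seen. Some members of the lists are not reported here by name. Members and lists were chosen with earlier results of these data known. Alternatives varied the promoter window, peak threshold, and word window.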

Additional observations from a re-analysis of the deposited data

Results flagged for a closer look

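Signal outside chromosomes 1 to 19 was present in the same list and was left out of every comparison. There were 398 peaks on chromosome X, with a median fold enrichment of 4.00 and a maximum of 11.4, and 12 on chromosome Y, with a median of 4.78. Unplaced or unlocalized sequences held 50 peaks with a median of 5.35 and a maximum of 18.3. The mitochondrial genome held 3 peaks with a median of 26.9 and a maximum of 29.8, a value that 5 autosomal peaks exceeded. Input signal at these places was not analysed here, and the values stand here because the comparisons do not use them.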

How the results depend on the processing

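The share of peaks at promoters, 49.1%, was 45.8% with 1000 bp upstream, 53.6% with 1000 bp on both sides of the TSS, 41.0% with protein-coding transcripts only, 39.4% by the summit, 38.03% when at least 50% of the peak had to lie in the promoter, 53.3% at −log10 q of at least 5 and 76.9% at −log10 p of at least 15. The share of coding genes with a promoter peak, 59.1%, was 60.5% with 1000 bp on both sides, 58.0% at −log10 q of at least 5, 46.6% at −log10 p of at least 15 and 46.9% by the summit. The intron share of distal peaks, 51.6%, was 46.2% with protein-coding genes only and 47.9% at −log10 p of at least 15. The ratio of median fold enrichment, 1.47, was 1.39 with 1000 bp on both sides and 1.44 at −log10 q of at least 5. The ratio of the TCF/LEF core, 1.04, was 1.22 (1.09 to 1.37) in 100 bp windows. The other 5 alternatives stayed within the counting interval of the reported value. Of the settings tried, the threshold on p moved the promoter share most, with 12578 peaks left.

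No paired analysis was possible because replicates were merged into 1 list before peaks were called, and leaving out a replicate was likewise not possible. At the lowest fold enrichment, 24 reads (18.6 after scaling) stand against 6.43 of background. The values are capped near 41.9 if 1 read per position and strand was kept, and input enters through a genome-wide constant.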
